A study of Rattus norvegicus with 23 samples.

Results

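The miR-30 family was measured on 1-colour Agilent miRNA arrays of rat mammary tissue. Members were taken by their name on the array: the guide strands rno-miR-30a, rno-miR-30b-5p, rno-miR-30c, rno-miR-30d and rno-miR-30e, and the passenger strands rno-miR-30a*, rno-miR-30b-3p, rno-miR-30c-1*, rno-miR-30c-2*, rno-miR-30d* and rno-miR-30e*. These are 11 of the 350 miRNAs on the array, and all 11 were among the 199 tested, which were detected on at least 7 arrays. The study asked which miRNAs are aberrant in radiation-induced mammary cancer. RNA came from 8 mammary carcinomas induced by radiation, 8 mammary carcinomas that arose spontaneously and 7 normal mammary tissues, all from female Sprague-Dawley rats. The carcinoma codes name 16 different animals, while nothing in the labels ties each normal tissue to an animal, so p-values against normal tissue may partly measure technical spread. Radiation dose and quality, and the ages of the rats, are not given in the sources used here.

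A microRNA is a short RNA that is cut from a hairpin precursor and guides Argonaute proteins to messenger RNAs, which it represses mainly through pairing of its seed, bases 2 to 8 from the 5′ end. The arm that is mostly retained is the guide strand, and the other arm, marked * or 3p here, is the passenger strand. The miR-30 guides carry the same seed, so they are thought to share many targets, and they are abundant in most tissues. In human breast tumour-initiating cells a low miR-30 level has been linked to self-renewal, with the SUMO-conjugating enzyme UBC9 and an integrin subunit as targets, and in the mouse mammary gland forced miR-30b delayed involution.

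Of the 11 strands, 6 matched a mature sequence in RefSeq (rat assembly GRCr8). They are shown because the guides differ so little from each other that a probe for 1 member may also bind another. Capitals mark the seed, in the guide strands first and then in the passenger strands.
rno-miR-30a-5p: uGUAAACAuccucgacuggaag
rno-miR-30c-5p: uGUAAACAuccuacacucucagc
rno-miR-30e-5p: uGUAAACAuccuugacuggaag
rno-miR-30a-3p: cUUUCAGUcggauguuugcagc
rno-miR-30c-1-3p: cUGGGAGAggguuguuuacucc
rno-miR-30c-2-3p: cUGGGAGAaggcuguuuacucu
The 3 guides share the seed GUAAACA, which 4 mature names in the rat table carry, the other being rno-miR-384-5p. The miR-30a and miR-30e guides have 22 bases and differ at 1 of them, C13U, counted from the 5′ end of miR-30a. The passenger strands of miR-30c-1 and miR-30c-2 share another seed, UGGGAGA, and differ at 3 bases. rno-miR-30b-5p, rno-miR-30b-3p, rno-miR-30d, rno-miR-30d* and rno-miR-30e* are given by name.

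In the RefSeq table the 6 genes lie as 3 neighbouring pairs. Mir30a and Mir30c2 are adjacent miRNA genes, as are Mir30b and Mir30d, and Mir30c1 and Mir30e lie next to each other inside Nfyc, which encodes a subunit of the transcription factor NF-Y. The same miR-30c guide is cut from Mir30c1 and from Mir30c2, so its level sums both genes. The hairpins of the first pair show how the arms compared below are joined, with both mature arms in capitals.
Mir30a: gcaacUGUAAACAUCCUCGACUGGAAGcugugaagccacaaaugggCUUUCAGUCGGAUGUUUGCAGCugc
Mir30c2: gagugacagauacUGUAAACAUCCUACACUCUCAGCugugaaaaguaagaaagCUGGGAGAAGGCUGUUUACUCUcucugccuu

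The arrays differed in brightness between groups. Before scaling, the 75th percentile of signal ran from 729 to 2032 on radiation-induced carcinoma arrays (median 1097), from 335 to 936 on spontaneous carcinoma arrays (median 611) and from 960 to 2494 on normal tissue arrays (median 1410). Levels below are log2 of the signal after each array was scaled by this percentile, with a floor at 3.29. A step of 1 on this scale is a doubling, and levels of different members are not set against each other because each probe has its own brightness. Detection of a miRNA on an array means that most spots of its probe were well above background there. The epithelial miR-200 family (5 miRNAs) was detected on 21 of the 23 arrays and sat at the floor on spontaneous carcinoma 1 and radiation-induced carcinoma 3. Guide differences that rest on those arrays are given with and without them. In such bulk RNA, fewer cells of a type and less RNA per cell cannot be told apart.

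The guide strands were bright in all 3 tissues and none passed the test in any comparison. All 5 were detected on all 23 arrays. With limma over all 23 arrays and Benjamini-Hochberg adjustment over the 199 miRNAs, 0 of 5 differed between radiation-induced and spontaneous carcinomas, where 8.04% of all tested miRNAs were higher and 10.1% lower. That background of 16 and 20 calls was itself 4 and 3 with slide as a block, and 0 and 0 in a fit of the carcinomas alone or with array brightness as a covariate, where 58 and 16 miRNAs had an unadjusted p under 0.05. None of the 5 differed between radiation-induced carcinomas and normal tissue, where 16.6% were higher and 8.54% lower. The count was again 0 of 5 between spontaneous carcinomas and normal tissue, where 26.1% were higher and 14.6% lower. At an unadjusted p under 0.05 the counts were 0, 1 and 0 of 5, against 70, 75 and 96 of the 199 miRNAs. The mean of the 5 guides was 9.59 ± 0.30 in radiation-induced carcinomas (SD, n = 8), 9.49 ± 0.17 in spontaneous carcinomas (SD, n = 8) and 9.44 ± 0.08 in normal tissue (SD, n = 7).

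**Figure D1:**
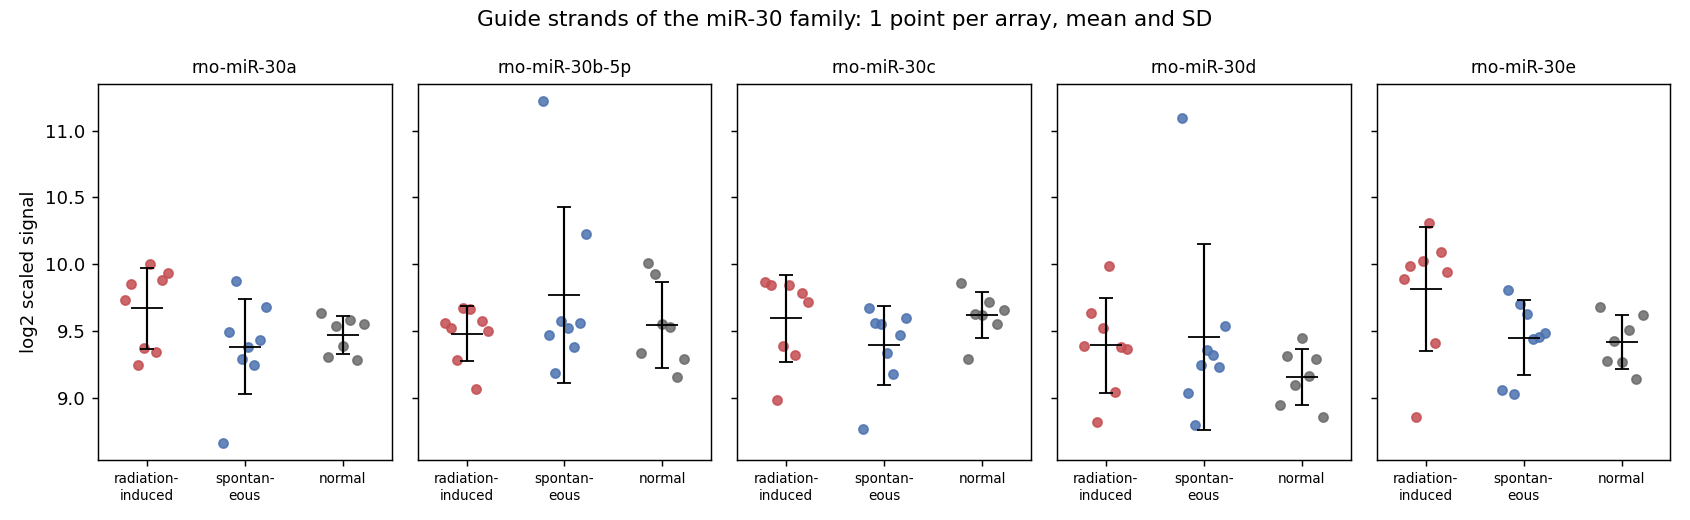
Levels of the 5 guide strands in log2 scaled signal (y axis) in radiation-induced carcinomas, spontaneous carcinomas and normal tissue (x axis), with 1 point per array and bars for the mean and SD. The groups overlap for each guide, and spontaneous carcinoma 1 stands highest for miR-30b-5p (11.22) and miR-30d (11.09) and lowest for miR-30a (8.66).

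The miR-30e guide came nearest to a difference. Its lowest, median and highest levels were 8.85, 9.96 and 10.31 in radiation-induced carcinomas, 9.02, 9.47 and 9.80 in spontaneous carcinomas and 9.14, 9.42 and 9.68 in normal tissue. Of the 8 radiation-induced carcinomas, 6 lay above every spontaneous carcinoma and every normal tissue, and 1, radiation-induced carcinoma 3, lay below all of them. The difference was 0.36 ± 0.18 (SE) from spontaneous carcinomas, a fold of 1.29 with a 95% interval of 0.993 to 1.67 (limma, adjusted p = 0.149). From normal tissue it was 0.40 ± 0.19 (SE), a fold of 1.32 with an interval of 1.01 to 1.72 (adjusted p = 0.122).

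The call for miR-30e depended on radiation-induced carcinoma 3, and between the carcinomas also on the scaling. Without that array the difference was 0.50 from spontaneous carcinomas (limma, adjusted p = 0.0274) and 0.53 from normal tissue (adjusted p = 0.0130). Without both arrays at the miR-200 floor it was 0.44 (adjusted p = 0.0311) and 0.53 (adjusted p = 0.00443). Calls over all 199 miRNAs rose as well. Between the carcinomas they went from 16 higher and 20 lower to 21 and 23 in the first fit and 25 and 23 in the second. Against normal tissue they went from 33 and 17 to 47 and 23, and to 67 and 28. Both left-out arrays were chosen for their miR-200 level with the data in view, so the values describe how much 1 array weighs. With all arrays kept, the difference between the carcinomas was 0.66 when the 75th percentile was taken over all probes (limma, adjusted p = 0.0229). It was 1.30 without scaling (adjusted p = 0.00138), where the median of all 199 miRNAs was 0.81, and 0.36 with quantile normalization (adjusted p = 0.136). Within slide 3, which holds 5 radiation-induced carcinomas and 2 normal tissues, the difference from normal tissue was 0.49 (adjusted p = 0.624). Within slide 4, which holds 3, 3 and 1 arrays of the groups, it was 0.36 from spontaneous carcinomas and 0.19 from normal tissue (adjusted p = 0.486 and 0.871).

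The miR-30a guide, which differs from miR-30e at that 1 base, was also highest in radiation-induced carcinomas by median, while its median in spontaneous carcinomas lay below that of normal tissue. Its lowest, median and highest levels were 9.25, 9.79 and 10.00 in radiation-induced carcinomas, 8.66, 9.41 and 9.87 in spontaneous carcinomas and 9.28, 9.53 and 9.64 in normal tissue. Of the radiation-induced carcinomas, 5 of 8 lay above every normal tissue and 3 above every spontaneous carcinoma, and the others lay within or below those ranges. The difference was 0.29 ± 0.16 (SE) from spontaneous carcinomas (limma, adjusted p = 0.209) and 0.20 ± 0.16 from normal tissue (adjusted p = 0.396). Between spontaneous carcinomas and normal tissue it was -0.09 ± 0.16, with a 95% interval of -0.43 to 0.25. Without spontaneous carcinoma 1, the lowest array for this guide, the difference was 0.18 between the carcinomas (adjusted p = 0.337) and 0.016 between spontaneous carcinomas and normal tissue (adjusted p = 0.937).

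The miR-30c guide, cut from 2 genes, had its lowest values on the same pair of arrays. Its lowest, median and highest levels were 8.99, 9.75 and 9.87 in radiation-induced carcinomas, 8.77, 9.51 and 9.67 in spontaneous carcinomas and 9.29, 9.62 and 9.85 in normal tissue. In radiation-induced carcinomas, 5 of 8 arrays lay above every spontaneous carcinoma. The difference was 0.20 ± 0.16 (SE) between the carcinomas (limma, adjusted p = 0.383), -0.02 ± 0.16 between radiation-induced carcinomas and normal tissue (adjusted p = 0.926) and -0.23 ± 0.16 between spontaneous carcinomas and normal tissue (adjusted p = 0.275). Without spontaneous carcinoma 1 the first of these was 0.11 and the last -0.14, and without radiation-induced carcinoma 3 the first was 0.29 and the second 0.064, with no call in any of these.

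The guides of the Mir30b and Mir30d pair had 1 very high array among the spontaneous carcinomas, spontaneous carcinoma 1. The lowest, median and highest levels of miR-30b-5p were 9.06, 9.54 and 9.67 in radiation-induced carcinomas, 9.18, 9.54 and 11.22 in spontaneous carcinomas and 9.16, 9.53 and 10.01 in normal tissue. The medians of the 3 groups nearly coincided, and the SD was 0.21, 0.66 and 0.32 in the same order, or 0.32 in spontaneous carcinomas without that array. The difference of miR-30b-5p was -0.29 ± 0.23 (SE) between the carcinomas (limma, adjusted p = 0.400), with a 95% interval of -0.76 to 0.18. It was -0.06 ± 0.23 between radiation-induced carcinomas and normal tissue (adjusted p = 0.873) and 0.23 ± 0.23 between spontaneous carcinomas and normal tissue (adjusted p = 0.465). Without spontaneous carcinoma 1 the difference was -0.079 between the carcinomas (limma, adjusted p = 0.764) and 0.017 between spontaneous carcinomas and normal tissue (adjusted p = 0.939), so most of both differences came from that array.

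For miR-30d the lowest, median and highest levels were 8.82, 9.39 and 9.99 in radiation-induced carcinomas, 8.80, 9.29 and 11.09 in spontaneous carcinomas and 8.85, 9.16 and 9.45 in normal tissue. The other 7 spontaneous carcinomas lay between 8.80 and 9.54, and normal tissue had the lowest median and the narrowest range. The difference was -0.06 ± 0.24 (SE) between the carcinomas (limma, adjusted p = 0.926), 0.24 ± 0.25 between radiation-induced carcinomas and normal tissue (adjusted p = 0.541) and 0.30 ± 0.25 between spontaneous carcinomas and normal tissue (adjusted p = 0.357). Without spontaneous carcinoma 1 the first of these was 0.17 (adjusted p = 0.447) and the last 0.063 (adjusted p = 0.782). Each guide has a second probe, and its level followed that of the probe used with r from 0.90 to 0.99 over the 23 arrays, given as a description.

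**Figure D2:**
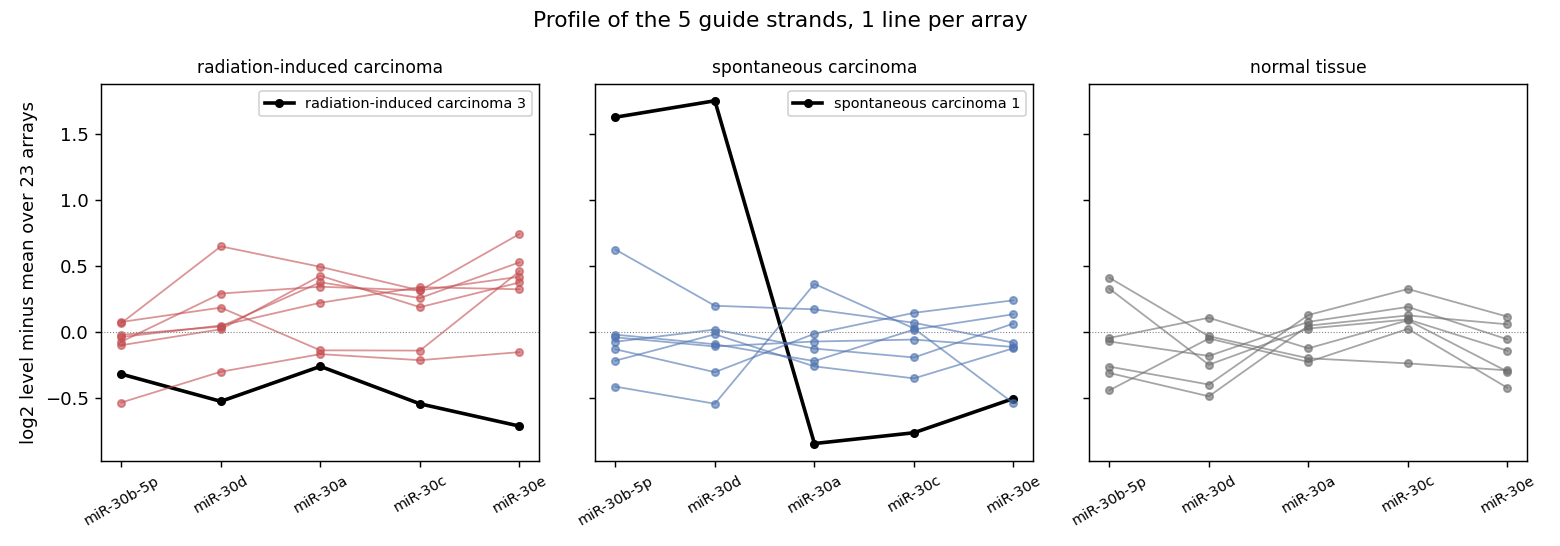
Each line is 1 array and joins its 5 guide strands (x axis), drawn as the log2 level minus that guide's mean over the 23 arrays (y axis), with radiation-induced carcinomas on the left, spontaneous carcinomas in the middle and normal tissue on the right. The black lines are radiation-induced carcinoma 3 and spontaneous carcinoma 1, the 2 arrays with the miR-200 family at the floor, and in the second of these miR-30b-5p and miR-30d lie far above miR-30a and miR-30c.

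In spontaneous carcinoma 1 the Mir30b and Mir30d pair stood apart from the rest of the family. There miR-30b-5p was at 11.22 and miR-30d at 11.09, against at most 10.22 and 9.54 on the other 7 spontaneous carcinoma arrays. Their passenger strands were raised too, with miR-30b-3p at 5.73 and miR-30d* at 5.42, against at most 4.62 and 3.59, and miR-30d* was detected on none of those other 7. On this array miR-30a (8.66) and miR-30c (8.77) had the lowest levels of the group, and miR-30e stood at 9.06. The mean of miR-30b-5p and miR-30d minus the mean of miR-30a, miR-30c and miR-30e was 2.33 there, and its zero depends on the probes. It was at most 0.29 on the other spontaneous carcinoma arrays, ran from -0.44 to 0.02 in radiation-induced carcinomas and from -0.58 to 0.37 in normal tissue.

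This array departed from its group in many other miRNAs as well: 113 of the 199 lay more than 1 from the median of the other 7 spontaneous carcinomas. The deviation of miR-30d was 1.84, and 27 of the 199 miRNAs, miR-30d included, deviated upward by at least as much. In radiation-induced carcinoma 3, miR-30a, miR-30c, miR-30d and miR-30e were at the lowest level of that group, while miR-30b-5p, at 9.28, was above radiation-induced carcinoma 6 (9.06). Many other miRNAs were low on this array too: 74 of the 199 deviated by more than 1 in either direction. Counting the guide itself, 39 miRNAs deviated downward by at least as much as miR-30e, 53 as miR-30c, 66 as miR-30a, 70 as miR-30d and 95 as miR-30b-5p. The summed level of the 8 epithelial marker miRNAs was 7.22 on radiation-induced carcinoma 3 and 6.57 on spontaneous carcinoma 1, against medians of 14.2 in both carcinoma groups. The part of cell content in these profiles was not tested.

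Within groups, the guides of some genes followed each other from array to array. Pearson's r was computed for the 10 pairs of guides in each of the 3 groups, with exact two-sided permutation tests and adjustment over these 30 relations. By r, 9 of the 30 passed: 4 in radiation-induced carcinomas, 2 in spontaneous carcinomas and 3 in normal tissue. By Spearman's rho 0 of the 30 passed, and 0 passed after the 2 arrays farthest from the median of 1 member were left out, where 6 or 5 arrays allow no p below 0.00278 or 0.0167. Slides hold at most 5 arrays of a group, too few for values within slides, and all relations share the scaling of each array.

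In radiation-induced carcinomas all 10 pairs had a positive r, from 0.60 to 0.91. The pair miR-30d and miR-30e had r = 0.91 (exact permutation p = 0.00124, adjusted p = 0.0186) and rho = 0.79 (adjusted p = 0.123), with r = 0.84 without the 2 farthest arrays. The pair miR-30c and miR-30e had r = 0.86 (exact permutation p = 0.0124, adjusted p = 0.0437) and rho = 0.45 (adjusted p = 0.401), but r = 0.09 without those arrays, so that relation rests on them. The same holds for miR-30a and miR-30e, with r = 0.78 (exact permutation adjusted p = 0.0370) and rho = 0.76 (adjusted p = 0.123), and r = 0.35 without them. The pair miR-30a and miR-30c had r = 0.91 (exact permutation adjusted p = 0.0361) and rho = 0.60 (adjusted p = 0.265), with r = 0.82 without its farthest arrays.

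In spontaneous carcinomas these values include spontaneous carcinoma 1 and restate its profile in part. The neighbours miR-30b-5p and miR-30d had r = 0.96 (exact permutation p = 0.00122, adjusted p = 0.0186) and rho = 0.74 (adjusted p = 0.138), with r = 0.74 without the 2 farthest arrays. For miR-30a and miR-30c r was 0.87 (exact permutation p = 0.00905, adjusted p = 0.0388) and rho 0.83 (adjusted p = 0.115), with r = 0.66 without the farthest arrays. The r of miR-30b-5p or miR-30d with miR-30a, miR-30c or miR-30e was negative for all 6 pairs, down to -0.86 for miR-30a and miR-30d (exact permutation adjusted p = 0.0528, rho = -0.57). Over the 7 arrays without spontaneous carcinoma 1, given as a description, these 6 ran from -0.46 to 0.43, 2 of them negative, while r was 0.79 for miR-30b-5p and miR-30d and 0.56 for miR-30a and miR-30c. The negative relations therefore rest on that array. Without scaling, with all arrays kept, these 6 ran from 0.13 to 0.46.

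In normal tissue miR-30a rose and fell with miR-30e (r = 0.94, exact permutation adjusted p = 0.0337, rho = 0.93, adjusted p = 0.101) and with miR-30c (r = 0.81, exact permutation adjusted p = 0.0370, rho = 0.96, adjusted p = 0.0833). Their r without the 2 farthest arrays was 0.91 and 0.76. The miR-30a and miR-30e guides differ at 1 base, so a probe for 1 of them may also bind the other. The miR-30d and miR-30e guides had r = -0.88 (exact permutation adjusted p = 0.0437, rho = -0.82, adjusted p = 0.123), and -0.92 without the farthest arrays. In radiation-induced carcinomas the same pair had r = 0.91, and the difference between these groups was not tested. Without scaling r of this pair was 0.72 in normal tissue and 0.95 in radiation-induced carcinomas, so the negative sign depended on the scaling. The levels of miR-30d and miR-30e varied little in normal tissue, with SDs of 0.21 and 0.20.

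Set against the other tested miRNAs, the mean of the 5 guides was most like rno-miR-26a over the 23 arrays (r = 0.62, and 0.72 after group means were removed). Next came rno-miR-338 (0.60), rno-miR-145 (0.54), rno-miR-186 (0.54) and rno-miR-181c (0.53). These r are descriptions with no test, over arrays that share tissue groups and scaling.

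**Figure D3:**
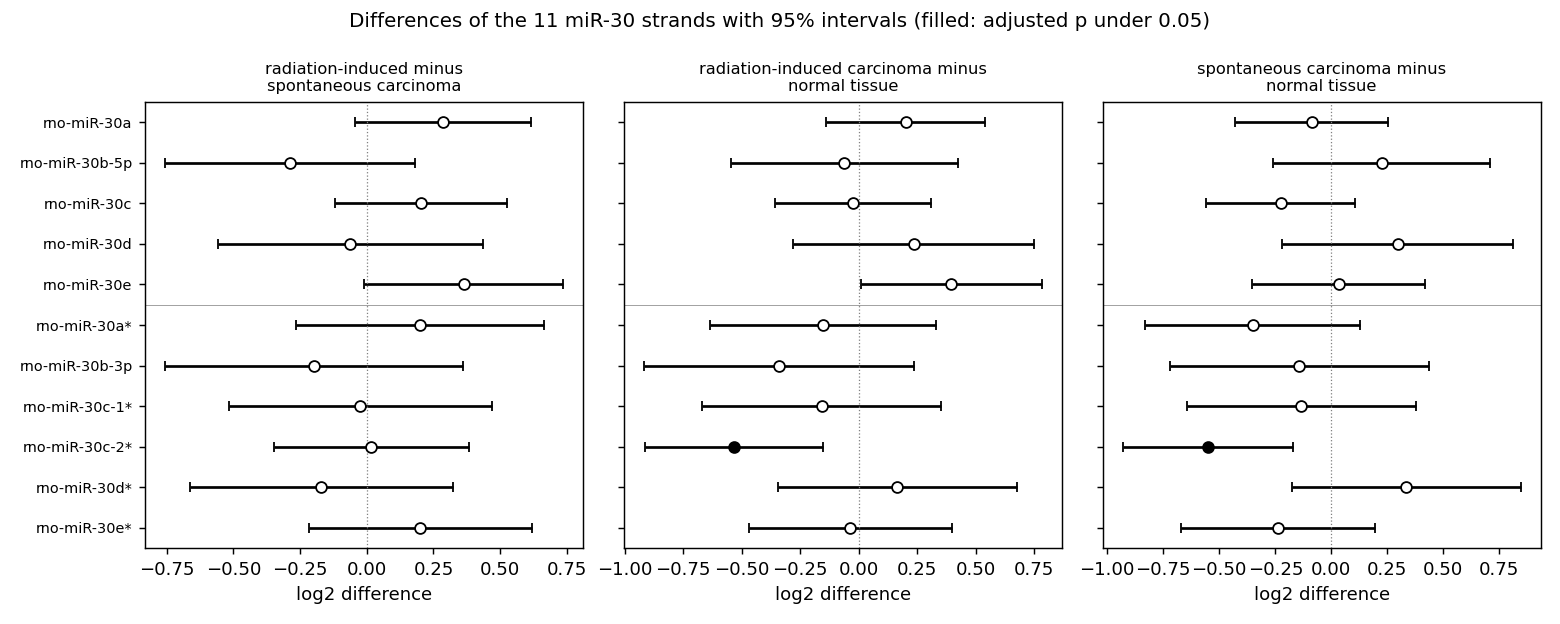
Log2 differences (x axis) of the 11 miR-30 strands (y axis, guides above the line) for radiation-induced minus spontaneous carcinoma, radiation-induced carcinoma minus normal tissue and spontaneous carcinoma minus normal tissue, with 95% intervals from limma. Filled points passed an adjusted p of 0.05, which only miR-30c-2* did, at -0.53 and -0.55 against normal tissue.

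Among the passenger strands, 1 of 6 passed: miR-30c-2* was lower in both carcinoma groups than in normal tissue. Its lowest, median and highest levels were 3.29, 3.97 and 4.14 in radiation-induced carcinomas, 3.29, 3.80 and 4.28 in spontaneous carcinomas and 3.93, 4.31 and 4.72 in normal tissue. None of the 16 carcinoma arrays reached the normal mean of 4.33, though the ranges overlapped. The difference from normal tissue was -0.53 ± 0.18 (SE) in radiation-induced carcinomas (limma, adjusted p = 0.0405) and -0.55 ± 0.18 in spontaneous carcinomas (adjusted p = 0.0187). The backgrounds are the 8.54% and 14.6% of lower calls given above, and both comparisons share the normal arrays.

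These levels lie just above the floor of 3.29. The second probe of miR-30c-2* was detected on 0 of the 23 arrays and sat at the floor, so the result rests on 1 probe. The strand was detected on 6 of 8 radiation-induced carcinoma, 2 of 8 spontaneous carcinoma and 7 of 7 normal arrays, and the signal that counts as detected was highest on the dim spontaneous arrays, so this fold may be understated by the floor or overstated by undetected signal. With slide as a block the difference in radiation-induced carcinomas was -0.49 (adjusted p = 0.146), and within slides 3 and 4 it was -0.56 and -0.51 (adjusted p = 0.410 and 0.665). In spontaneous carcinomas it was -0.54 with slide as a block (limma, adjusted p = 0.0437). Within slides 1 and 2 it was -0.64 and -0.34 (adjusted p = 0.471 and 0.613), and within slide 4, which holds 1 normal tissue, -0.64. Each of the 23 fits without 1 array kept the call in spontaneous carcinomas (adjusted p from 0.0093 to 0.0495). Leaving out 1 array ended the call in radiation-induced carcinomas for 7 of the 23 arrays: radiation-induced carcinomas 3, 4 and 6 and normal tissues 2, 4, 6 and 7 (adjusted p from 0.0504 to 0.0924). With total gene signal the differences in radiation-induced and spontaneous carcinomas were -0.50 and -0.65 (limma, adjusted p = 0.110 and 0.0274). The mean of all probes gave -0.27 and -0.28 (adjusted p = 0.0530 and 0.0280). With array brightness as a covariate the values were -0.52 and -0.49 (adjusted p = 0.0786 and 0.375). With normexp background correction they were 0.13 and 0.80, the second a rise (adjusted p = 0.000258).

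The other passenger strands did not pass in any comparison. The probe used for miR-30e* was detected on all 23 arrays and had a median of 5.97 in radiation-induced carcinomas, 5.82 in spontaneous carcinomas and 5.96 in normal tissue. The level of miR-30a* had a median of 5.62 in radiation-induced carcinomas, 5.37 in spontaneous carcinomas and 5.68 in normal tissue, and it was detected on 22 of 23 arrays. The remaining strands were close to the floor: miR-30b-3p was detected on 17 arrays, miR-30c-1* on 16 and miR-30d* on 7. The level of miR-30d* sat at the floor or within 0.01 of it in all normal tissues.

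Guide and passenger strands were then compared as the level of the guide minus that of the passenger strand on the same array, for the 35 pairs of arms with both tested. For miR-30c this is not the balance within 1 precursor: the guide sums Mir30c1 and Mir30c2, each passenger strand comes from 1 of them, and the same guide level enters 2 of the 6 miR-30 pairs. This measure was chosen after the values had been seen, and its zero depends on the probes. Against normal tissue, 3 of the 6 miR-30 pairs were higher in radiation-induced carcinomas, where 14.3% of all pairs were higher (5 of 35, with 4 lower). Between spontaneous carcinomas and normal tissue 0 of 6 passed (limma, all p adjusted over 35 pairs), where 2.86% of pairs were higher (1 of 35, with 4 lower), and at an unadjusted p under 0.05 there was 1, the miR-30a pair. Between radiation-induced and spontaneous carcinomas 0 of 6 passed, where 2.86% were higher (1 of 35, with 0 lower), and their smallest unadjusted p was 0.235.

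The miR-30e pair had a lowest, median and highest guide-minus-passenger difference of 3.53, 3.89 and 4.16 in radiation-induced carcinomas, 3.24, 3.72 and 4.32 in spontaneous carcinomas and 3.18, 3.39 and 3.68 in normal tissue. All 8 radiation-induced carcinomas lay above the normal mean of 3.45, and 6 of 8 above every normal tissue. It was higher by 0.43 ± 0.14 (SE) in radiation-induced carcinomas than in normal tissue (limma, adjusted p = 0.0324), and by 0.27 ± 0.14 in spontaneous carcinomas (adjusted p = 0.134). Within slides 3 and 4 the difference of radiation-induced carcinomas from normal tissue was 0.57 and 0.31 (adjusted p = 0.0360 and 0.720).

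The miR-30a pair ran alongside. Its guide differs from that of miR-30e at 1 base and their probes may share signal, so the miR-30a and miR-30e pairs may not be separate measures. The lowest, median and highest values of the miR-30a pair were 3.92, 4.15 and 4.31 in radiation-induced carcinomas, 3.72, 3.98 and 4.70 in spontaneous carcinomas and 3.49, 3.73 and 3.99 in normal tissue. Again 8 of 8 radiation-induced carcinomas lay above the normal mean and 6 above every normal tissue. It was higher by 0.35 ± 0.12 (SE) in radiation-induced carcinomas (limma, adjusted p = 0.0430) and by 0.26 ± 0.12 in spontaneous carcinomas (adjusted p = 0.134), or 0.17 without spontaneous carcinoma 1 (adjusted p = 0.236). Within slides 3 and 4 the difference of radiation-induced carcinomas from normal tissue was 0.49 and 0.26 (adjusted p = 0.0451 and 0.720).

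The pair of miR-30c and miR-30c-2* differed mainly in its passenger strand, since the guide itself averaged 9.59 in radiation-induced carcinomas and 9.62 in normal tissue. Its lowest, median and highest values were 5.58, 5.80 and 6.02 in radiation-induced carcinomas, 5.02, 5.67 and 6.04 in spontaneous carcinomas and 4.57, 5.35 and 5.70 in normal tissue. The difference from normal tissue was 0.51 ± 0.17 (SE) in radiation-induced carcinomas (limma, adjusted p = 0.0348) and 0.33 ± 0.17 in spontaneous carcinomas (adjusted p = 0.134). Within slides 3 and 4 the first of these was 0.51 and 0.46 (adjusted p = 0.132 and 0.666). With slide as a block the 3 differences in radiation-induced carcinomas were 0.46 for miR-30e, 0.40 for miR-30a and 0.45 for miR-30c-2 (adjusted p = 0.0998, 0.0998 and 0.121), and with normexp they were 0.24, 0.08 and -0.14, so none of the 3 calls held under those settings. Under normexp the median of all 35 pairs was itself -0.17 between radiation-induced carcinomas and normal tissue. Leaving out 1 array at a time left from 0 to 3 calls. The call for miR-30e was lost without any of radiation-induced carcinomas 4, 5, 7 and 8 and normal tissues 1, 4, 5 and 6 (adjusted p from 0.0522 to 0.0777). The call for miR-30a was lost without any of radiation-induced carcinomas 3, 4, 5, 7 and 8 and normal tissues 1, 4, 5 and 6 (adjusted p from 0.0519 to 0.108). The call for miR-30c-2 was lost without any of radiation-induced carcinomas 4, 5 and 8 and normal tissues 2, 4 and 6 (adjusted p from 0.0522 to 0.0866).

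**Figure D4:**
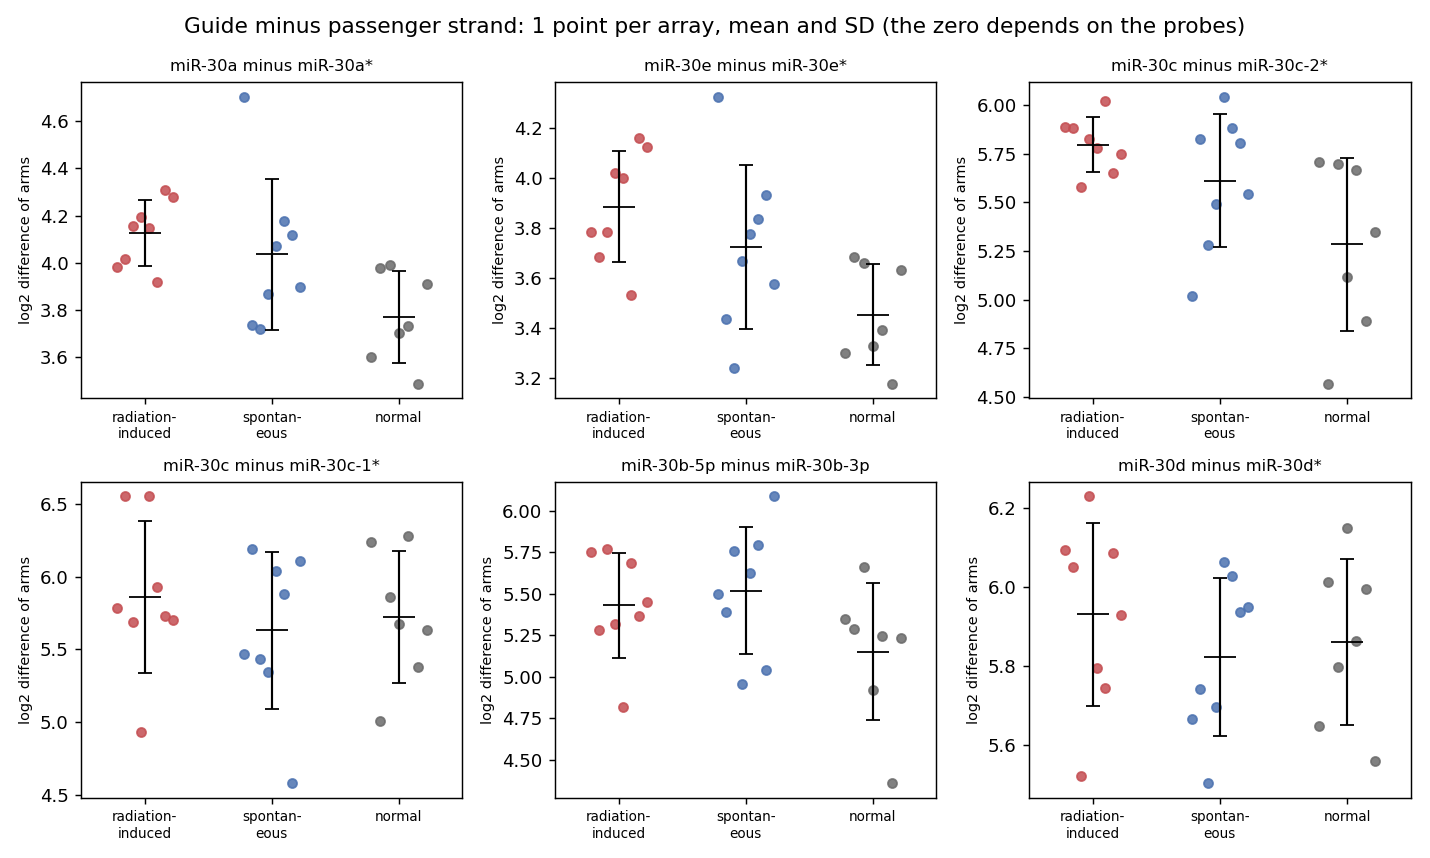
Guide minus passenger strand (y axis, log2) for the 6 miR-30 pairs of arms in radiation-induced carcinomas, spontaneous carcinomas and normal tissue (x axis), with 1 point per array and bars for the mean and SD. In the upper row, which holds miR-30a, miR-30e and miR-30c-2, 6 of 8 radiation-induced carcinomas lie above every normal tissue.

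Some marker miRNAs of the cell types these tissues could hold passed in the same comparisons. Their counts are to be read against the share of all 199 tested miRNAs that passed. Against normal tissue this share was 16.6% (higher) and 8.54% (lower) for radiation-induced carcinomas, and 26.1% and 14.6% for spontaneous carcinomas. Between the carcinomas it was 8.04% and 10.1%. Of the 4 endothelial markers, 3 were lower in radiation-induced carcinomas and 3 in spontaneous carcinomas than in normal tissue. Among them rno-miR-139-5p differed by -1.27 ± 0.20 and -1.48 ± 0.20 (SE, limma, adjusted p = 0.000132 and 1.3e-05). Its means of 3.59 and 3.39 in these carcinomas lie near the floor of 3.29, which limits both its fold and its spread. The other arm, rno-miR-139-3p, had means of 6.54 and 7.32 in the same groups and was not among the lower markers. Of the 5 leukocyte markers, 1 and 3 were lower. Of the 4 striated muscle markers tested, 2 and 2 were lower, with rno-miR-133b at -1.88 and -1.44. Its means in the carcinomas were 3.33 and 3.77, also near the floor. Of the 6 smooth muscle and fibroblast markers, 0 and 3 were lower than in normal tissue, and 2 were higher in radiation-induced than in spontaneous carcinomas, among them rno-miR-145 at 1.36 ± 0.37 (SE, adjusted p = 0.0184). The 11 adipocyte differentiation markers included 1 that was lower in radiation-induced carcinomas, and 2 higher and 1 lower in spontaneous carcinomas. In spontaneous carcinomas both adipocyte counts were smaller shares than the 26.1% and 14.6% of all tested miRNAs. Between radiation-induced and spontaneous carcinomas, 1 adipocyte marker was higher and 2 were lower, 1 striated muscle marker was higher, and no endothelial or leukocyte marker passed. The higher adipocyte marker, rno-miR-143, is on both lists and is also 1 of the 2 higher smooth muscle and fibroblast markers. None of the 8 epithelial markers passed in any comparison (limma). The summed endothelial level ran from 8.56 to 11.4 in radiation-induced carcinomas, from 8.88 to 10.2 in spontaneous carcinomas and from 10.7 to 11.3 in normal tissue. The part of cell content in the miR-30 values was not tested.

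Leaving out the scaling shifted the median of all miRNAs, and the signs and calls of the guides moved with it. Without scaling, the median over all 199 miRNAs was 0.81 for radiation-induced minus spontaneous carcinoma, against -0.02 with it, and miR-30a, miR-30c, miR-30d and miR-30e passed as higher in radiation-induced carcinomas. Relative to that median, the 5 guides lay between -0.16 and 0.49 without scaling and between -0.26 and 0.39 with it. For spontaneous carcinoma minus normal tissue the unscaled median was -0.98, against 0.23 with scaling, and all 5 guides passed as lower, while relative to the median they lay between -0.60 and -0.08, against -0.46 to 0.07. Between radiation-induced carcinomas and normal tissue the unscaled median was -0.21 and none of the guides passed.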

How the data were processed

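The deposited scanner files hold spot intensity values on a linear scale, extracted by the authors with Agilent Feature Extraction 9.5.1.1 and background-subtracted within each array, per the file headers. RNA was dephosphorylated and labelled with pCp-Cy3, per the labels' protocols. For each of 938 probes the processed signal was the mean of spots without an outlier mark. It was divided by the array's 75th percentile, taken over the 199 probes with detection on all 23 arrays. The result was multiplied by the geometric mean of the arrays' percentiles (969), floored at 9.81 (log2 3.29) and log2-transformed. The probe of highest mean stood for its miRNA. Tests used limma (version 3.58.1, R 4.3.3, data.table package 1.17.8) with 1 mean per group over 23 arrays and Benjamini-Hochberg adjustment over 199 miRNAs, and the fit was tested on simulated data. Correlations used exact permutations in Python 3.11.15 (numpy 2.4.6, scipy 1.17.1).

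The members, marker lists and tests were chosen with earlier results of these data known, and the comparison of arms (35 pairs) was added after its values were seen. The text names all miR-30 strands, the 5 tested miRNAs most correlated with the mean of the guides, and up to 2 tested members of a marker list with the smallest p. The lists are epithelial, adipocyte differentiation, smooth muscle and fibroblast, endothelial, leukocyte and striated muscle. The files used hold no mean signal, so the normexp alternative (offset 50) was run on the median signal. The authors' deposited values, also intensity, served as an alternative. The array headers name build rn4, so the RefSeq tables of GRCr8 gave sequences and neighbouring genes only. The number of arrays limits the precision. Of the 4 slides, each scanned as 1 batch, the first carries 2 spontaneous carcinomas with 2 normal tissues, the second 3 with 2, the third 5 radiation-induced carcinomas with 2 normal tissues, and the fourth 3 radiation-induced and 3 spontaneous carcinomas with 1 normal tissue. The K-coded spontaneous carcinomas are those on the first and second slides and the M-coded ones those on the fourth. Code letter and slide therefore cannot be told apart among spontaneous carcinomas.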

Additional observations from a re-analysis of the deposited data

Results flagged for a closer look

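In 7 of 54 groups checked for 1 array far from the others, the gap to the nearest array was large for the group's range. For separate measures away from the floor, chance gives about 1 in 20. Here miR-30d* had its median at the floor in each group, and several flags are overlapping measures of spontaneous carcinoma 1. The count therefore cannot be read against that rate. In spontaneous carcinoma 1, miR-30d stood at 11.09, against 9.54 for the next array, and its passenger strand miR-30d* at 5.42, against 3.59. On that array the mean of miR-30b-5p and miR-30d minus the mean of miR-30a, miR-30c and miR-30e was 2.33, against 0.29 for the next, and miR-30a minus miR-30a* was 4.70, against 4.18, with miR-30a* not detected there. In radiation-induced carcinoma 3, miR-30e* was lowest at 5.07, against 5.82 for the next. In radiation-induced carcinoma 5, miR-30d* was highest at 4.19, against 3.58. In normal tissue 4, miR-30d* was at 3.30, within 0.01 of the floor that the other 6 normal tissues sat at.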

How the results depend on the processing

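Guide strands called. For radiation-induced against spontaneous carcinomas the count of 0 became 2 with the percentile over all probes, 4 without scaling, 4 in the authors' deposited table and 1 without both arrays at the miR-200 floor; for radiation-induced carcinomas against normal tissue it became 1 without those arrays; for spontaneous carcinomas against normal tissue it became 2, 5 and 5 under the first 3. Leaving out 1 array gave 0 to 1, 0 to 1 and 0 to 0 calls in the 3 comparisons, the 1 being miR-30e without radiation-induced carcinoma 3. With scaling, 16 miRNAs were higher and 20 lower between the carcinomas, against 29 and 5 for the all-probe percentile, 14 and 7 for quantiles and 99 and 0 unscaled. Against normal tissue the splits were 33 and 17 for radiation-induced carcinomas (16 and 19 with all probes, 17 and 20 with quantiles, 4 and 23 unscaled) and 52 and 29 for spontaneous carcinomas (25 and 57, 29 and 43, 4 and 112). With slide as a block the 3 splits were 4 and 3, 17 and 11, and 50 and 28; with array brightness as a covariate 0 and 0, 23 and 12, and 1 and 3; with the compared groups alone 0 and 0, 54 and 22, and 47 and 27. Without both arrays at the miR-200 floor the 3 splits were 25 and 23, 67 and 28, and 72 and 30. Without radiation-induced carcinoma 3 they were 21 and 23, 47 and 23, and 55 and 31. Each cause was not tested.

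Guides that changed sign, radiation-induced minus spontaneous: miR-30b-5p was 0.012 (all probes), 0.65 (unscaled) and 0.64 (deposited table), and miR-30d 0.24, 0.87 and 0.88 there, 0.25 without both miR-200-floor arrays and 0.027 with only the M-coded spontaneous carcinomas; leaving out 1 array it ran from -0.16 to 0.17. Radiation-induced minus normal: miR-30a was -0.0080 (quantile), -0.21 (unscaled) and -0.17 (deposited), miR-30d -0.18 and -0.14 in the last 2 of these, and miR-30e -0.018 unscaled. There miR-30b-5p was 0.070 (slide block), 0.20 and 0.092 (within slides 3 and 4), 0.11 (brightness covariate) and -0.13 to 0.016 leaving out 1 array, and miR-30c 0.024 (total gene signal), 0.029 (mean of probes), 0.064 (without both miR-200-floor arrays) and -0.077 to 0.064 leaving out 1. Spontaneous minus normal: miR-30b-5p was -0.24 (all probes), -1.12 (unscaled), -1.10 (deposited) and -0.31 (within slide 2), miR-30d -0.17, -1.05, -1.02 and -0.14 there, and miR-30e -0.43, -1.32 and -1.29 in the first 3, -0.051 (quantile), -0.045 and -0.16 (within slides 1 and 4) and -0.018 to 0.094 leaving out 1. There miR-30a was 0.055 (within slide 2), 0.016 (without both miR-200-floor arrays), 0.086 (brightness covariate) and -0.16 to 0.016 leaving out 1.

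With normexp on the median signal, miR-30c-2* was 0.13 and 0.80 in radiation-induced and spontaneous carcinomas against normal tissue. The median of all 199 miRNAs was 0.30 and 0.74 there. Under a raised floor both miR-30c-2* differences were 0, since the strand lies below that floor. The guide-minus-passenger difference under normexp was -0.14 for miR-30c-2 in radiation-induced carcinomas, and -0.58, -0.96 and -0.43 for miR-30a, miR-30c-2 and miR-30e in spontaneous carcinomas, against normal tissue; unscaled it was -0.093 for miR-30c-2 in the last comparison. Arm differences of miR-30 called in the 3 comparisons were 3, 2 and 1 unscaled and 5, 0 and 6 with normexp, against 0, 3 and 0. Over all 35 pairs the calls higher and lower were 14 and 2, 4 and 4, and 2 and 11 unscaled. With normexp they were 19 and 2, 1 and 3, and 3 and 22, with medians of 0.46, -0.17 and -0.63. For radiation-induced carcinomas against normal tissue, 0 miR-30 arm differences passed with slide as a block and 0 within slide 4, and 0 to 3 leaving out 1 array, while leaving out 1 gave 0 to 0 in the other comparisons. Correlations passing were 22 of 30 unscaled and 0 of 30 without the 2 farthest arrays, against 9.

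No paired analysis was possible because the codes name separate animals and the normal tissues' numbers pair with no carcinoma.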
